A study of Homo sapiens with 3 samples.

Results

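The transcripts of 10 SRSF genes were examined for RBM17 binding: SRSF1, SRSF2, SRSF3, SRSF4, SRSF5, SRSF6, SRSF7, SRSF9, SRSF10 and SRSF11. They were 10 of the 10872 genes that carried a binding cluster in replicate 2, where the authors' peak caller named the gene of each cluster by its Ensembl identifier, and each symbol was matched to its identifier in GENCODE v44. The clusters of replicate 1 and the reproducible peaks carry no gene name. They were assigned to an SRSF gene when they lay, with at least 1 bp and on the same strand, inside the span from the first to the last replicate 2 cluster of that gene. This gave 209 replicate 2 clusters with 5175 reads, 243 of the 137095 replicate 1 clusters and 21 of the 866 reproducible peaks.

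RBM17, a splicing factor that associates with the U2 snRNP, was profiled in K562 cells, an established line from a patient with chronic myeloid leukemia. The assay, eCLIP, fixes proteins to the RNA in contact with them by ultraviolet light, precipitates the protein with its RNA, and sequences the RNA fragments beside a size-matched input, a small part of the same material set aside before the washes. The samples were RBM17 eCLIP replicates 1 and 2, irradiated at 254 nm with 400 mJ/cm2 and precipitated with 10 μg of a mixture of a pair of RBM17 antibodies, and 1 input, made of 2% of the material. No knockdown, treatment or control antibody was part of these samples, both replicates were compared with the same input, and the labels do not say whether the replicates were separate cultures.

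The replicates were deposited in different forms. For replicate 1 each cluster has a log2 fold over the input and a −log10 p but no read count, so its depth is unknown. For replicate 2 each cluster has a number of reads and a p-value that the peak caller gave without the input. Each reproducible peak carries a single log2 fold over input that covers the 2 replicates jointly. No value therefore has a replicate error, and no test over samples was possible. Intervals beside shares are exact Clopper-Pearson 95% intervals for counting error alone, and shares are set beside the same share over all clusters or genes. The cell line label was set beside markers of erythroid and lymphoid cells that were chosen after other values had been seen: all 7 erythroid genes had replicate 2 clusters, with 19 to 1553 reads each, and none of the 5 lymphoid genes had a cluster.

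SR proteins are splicing factors that bind RNA through RNA recognition motifs and contact other splicing factors through a domain rich in arginine and serine. They bind enhancer sequences in exons and promote the use of nearby splice sites, and several of them also take part in mRNA export and translation. SR protein genes are known for poison exons, conserved cassette exons whose inclusion brings a premature stop codon, so that the transcript is degraded by nonsense-mediated decay (NMD). Many SR proteins promote this event in their own transcripts and in those of their relatives, and thereby hold their own level in check.

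GENCODE v44 lists 1 or more NMD transcripts for each of the 10 genes, from 1 for SRSF5 and SRSF6 to 6 for SRSF7. For SRSF3, SRSF4, SRSF6, SRSF7, SRSF9 and SRSF11, such a transcript has an exon that lies wholly inside an intron of the canonical transcript and carries the annotated premature stop codon. Exons of the 3 such genes that also had a reproducible peak are shown here in hg38, from the first base of the exon to the stop codon, which is in capitals. SRSF transcripts are known for exons of this kind. The genes shown were chosen by having a peak, and the exons within them by annotation, without use of the peak positions. Whether they are the conserved poison exons was not tested. The eCLIP positions are in hg19, so no distance between peak and exon was measured.
SRSF4, chr1:29165890-29166064 on the minus strand, intron 1: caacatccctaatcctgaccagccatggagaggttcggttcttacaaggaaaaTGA
SRSF6, chr20:43459153-43459420 on the plus strand, intron 2: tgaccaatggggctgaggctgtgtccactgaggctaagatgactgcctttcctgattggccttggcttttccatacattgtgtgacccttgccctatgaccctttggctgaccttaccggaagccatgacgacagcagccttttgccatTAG
SRSF7, chr2:38748898-38749346 on the minus strand, intron 3: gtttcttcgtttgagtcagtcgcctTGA
SRSF7, chr2:38748898-38749173 on the minus strand, intron 3, a shorter form of the same exon: ggcagaaaatttgagacggTGA
The stop codon ends 56 bases into the 175 bp exon of SRSF4 and 152 bases into the 268 bp exon of SRSF6. In SRSF7 it ends 28 and 22 bases into the forms of 449 and 276 bp, which end at the same base. SRSF4 has 5 annotated exons of this position, counting overlapping forms of 228 and 195 bp separately. Of the 5, 1, the exon shown, holds a stop codon. SRSF2 has 1 annotated exon of this position, of 104 bp, without a stop codon inside it, and SRSF1 and SRSF5 have none.

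RBM17 signal on the SRSF transcripts was strong by read number and uneven by enrichment. SRSF1, SRSF2, SRSF4, SRSF5, SRSF6 and SRSF7 had 1 or more reproducible peaks, and SRSF3, SRSF9, SRSF10 and SRSF11 had none. Of all 10872 genes, 4.07% had a peak. The share of genes with a peak was higher where replicate 2 had more reads, so the genes were also divided into 10 groups of equal size by these reads. In a bulk library, more RNA of a transcript and more RBM17 on each RNA cannot be told apart by reads alone. The highest group, from 198 reads, held 8 of the 10 SRSF genes and all 6 with a peak, and 298 of its 1088 genes (27.4%) had a peak. SRSF9 was in the next group, where 7.45% of genes had a peak, and SRSF10 in a group in which 1.29% had one.

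In replicate 1, a cluster was counted as past the threshold when its log2 fold and its −log10 p were both 3 or more. Of the 243 SRSF clusters, 46 were past it (18.9%, interval 14.2 to 24.4%), against 5.35% of all replicate 1 clusters. They lay in 7 of the 10 genes. Among the 8524 genes with a cluster in each replicate, 20.6% had 1 or more clusters past the threshold. SRSF3 with 14 and SRSF6 with 11 held 25 of the 46, and without both genes 21 of 201 clusters remained (10.4%, interval 6.58 to 15.5%). In the group of genes with the most reads, which held 8 of the 10 SRSF genes, 3433 clusters were past the threshold and 37837 were not. The part of read number in the SRSF share was not tested. The median log2 fold was 1.66 over the SRSF clusters and 1.51 over all clusters. A log2 fold below 0 was found for 22 SRSF clusters (9.05%), near the 11.4% of all replicate 1 clusters.

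**Figure D1:**
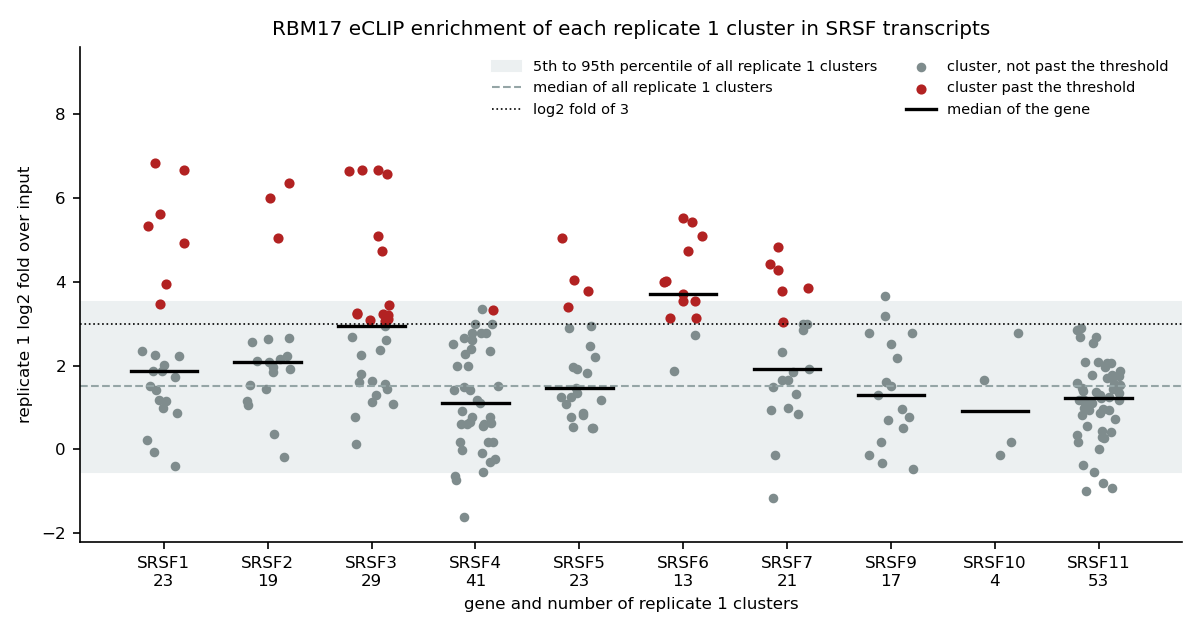
Log2 fold over input (y axis) of every replicate 1 cluster, as 1 point, in the 10 SRSF genes (x axis, with the number of clusters under each name). Red points are past the threshold, black bars are the median of a gene, and the grey band spans the 5th to 95th percentile of all clusters (−0.55 to 3.51). SRSF6 has the highest median at 3.71, and SRSF9, SRSF10 and SRSF11 have no red point.

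SRSF6 encodes an SR protein with a pair of RNA recognition motifs and had the densest enrichment of the 10 transcripts. Its span covered 3102 bp on chromosome 20, from 42087021 to 42090122 in hg19, on the plus strand. In replicate 1 it had 13 clusters with log2 folds from 1.88 to 5.53 and a median of 3.71. Of these, 11 were past the threshold (84.6%, interval 54.6 to 98.1%), and only 6 of the 3963 genes with 10 or more replicate 1 clusters had a higher share. The 2 remaining clusters, with log2 folds of 1.88 and 2.73, were the 2 nearest to the 3′ end. In replicate 2 the gene had 12 clusters and 252 reads, which is more than in 92.9% of genes but far from the highest among the SRSF genes.

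The 8 reproducible peaks of SRSF6 were the most of any SRSF gene, and 12 genes in all had 8 or more. They lay within 808 bp, from 42087019 to 42087826, and 5 remained after abutting peaks were merged. Along the transcript the first was a coding peak of 47 bp at 42087019 to 42087065 with a log2 fold of 3.35, by the region label given to each peak. The second, at 42087203 to 42087254, was labelled as a 5′ splice site that extends into the intron, and had a log2 fold of 3.85. The peak that abuts it, at 42087255 to 42087304 in the proximal intron, had the highest value of the gene, 4.41. The 3 peaks that follow abut each other from 42087348 to 42087424, in the same class of intron, with log2 folds of 4.19, 4.29 and 3.48. The last 2, between 42087544 and 42087628 and between 42087790 and 42087826, had 3.25 and 3.30, and the final one was labelled as distal intron. By their labels, the peaks thus passed from coding sequence over a 5′ splice site into intron.

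In SRSF6 replicate 1 enrichment over the input and replicate 2 reads were highest at the same place. In replicate 2 the 2 clusters with the most reads, 47 each at 42087213 to 42087292 and 42087362 to 42087409, lay under the peaks with the highest folds. The 500 bp window with the most reads, by the centres of the clusters, held 136 of the 252 reads (54.0%), and the clusters inside the peaks held 176 (69.8%). In the other genes with a peak, the clusters that overlapped peaks held between 5.51% and 28.8% of the reads.

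SRSF1 is the founding SR protein, acts in constitutive and alternative splicing and is known as a proto-oncogene. It had 24 replicate 2 clusters and 1200 reads (percentile 99.4), or 340 reads per kb of its 3527 bp span, the highest density of the 10 genes. In replicate 1 it had 23 clusters with a median log2 fold of 1.88, and 7 were past the threshold (30.4%, interval 13.2 to 52.9%). Of these, 5 had log2 folds of 4.93 to 6.83 and lay within 376 bp, from 56083904 to 56084279 on chromosome 17, minus strand. The highest value of all SRSF clusters, 6.83 at 56083990 to 56084051, had no replicate 2 cluster over it. The clusters closest to the 3′ end had log2 folds of −0.41, −0.05 and 1.00.

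The 3 peaks of SRSF1 had log2 folds of 4.76, 5.72 and 3.27 along the transcript. The first and second, at 56084192 to 56084203 and 56084100 to 56084174, were labelled as proximal intron and overlapped replicate 2 clusters of 33 and 44 reads. The third, at 56083698 to 56083741, was labelled as 5′ splice site and coding sequence and overlapped a cluster of 37 reads. The replicate 2 cluster with the most reads lay elsewhere: the 91 reads at 56082421 to 56082472 were matched in replicate 1 by a log2 fold of 2.26. The densest 500 bp window of SRSF1 held 445 reads (37.1%) and lay 3′ of all 7 clusters past the threshold. Read number and enrichment over the input therefore pointed to different stretches of this transcript. Clusters in the 3′ part of the span were also counted in replicate 2 under another identifier, ENSG00000266086. All 7 clusters past the threshold were outside its span, as were 12 of the 23 clusters.

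SRSF2 recognises exonic enhancers, lowers its own mRNA through NMD, and is a known site of mutation in myeloid neoplasms. It had 16 replicate 2 clusters and 563 reads (percentile 97.9) and 19 replicate 1 clusters with a median log2 fold of 2.07. The 3 clusters past the threshold (15.8%, interval 3.38 to 39.6%) had log2 folds of 6.36, 5.05 and 5.997 and lay within 288 bp, from 74732570 to 74732857 on chromosome 17, minus strand. No other cluster of the gene exceeded 2.66, so the values fell into a high group and a low one with no cluster between them.

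Both SRSF2 peaks carried the name of a microRNA, hsa-mir-636, in place of SRSF2. The peak at 74732800 to 74732857, labelled as proximal to the microRNA, had the highest log2 fold of the 21 SRSF peaks at 5.99, and a replicate 2 cluster of 31 reads lay over it. The peak at 74732570 to 74732619, labelled as the microRNA itself, had a log2 fold of 5.52. It was the only SRSF peak without a replicate 2 cluster named for its SRSF gene, and the cluster that overlapped it, of 12 reads and a peak caller p of 0.00124, was named for MIR636 (ENSG00000207556). The most reads in SRSF2, 109 at 74732082 to 74732186, came with a replicate 1 log2 fold of 2.66. Reads of the microRNA precursor and of the SRSF2 transcript on this strand cannot be told apart.

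SRSF7, an SR protein with a zinc knuckle that also acts in mRNA export, had 5 peaks, the second highest number. In replicate 2 it had 20 clusters of 7 to 35 reads and 427 reads in all (percentile 96.8). In replicate 1 it had 21 clusters with a median log2 fold of 1.91, and 6 were past the threshold (28.6%, interval 11.3 to 52.2%), with values of 3.05 to 4.83. Its peaks were spread more widely than those of the other genes, over 2768 bp of the 6290 bp span. Along the transcript on chromosome 2, minus strand, they had log2 folds of 3.63 at 38978237 to 38978344, 3.38 at 38978175 to 38978219 and 4.02 at 38977757 to 38977836. The last 2 had 3.16 at 38976563 to 38976617 and 4.33 at 38975577 to 38975639. The first of the 5 and the last 2 were labelled as 5′ splice site with proximal intron, and the others as proximal intron. No other SRSF gene had 3 peaks with a 5′ splice site label.

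SRSF5, an SR protein with a pair of RNA recognition motifs, had 18 replicate 2 clusters, 516 reads (percentile 97.6) and 23 replicate 1 clusters with log2 folds of 0.50 to 5.05. The 4 clusters past the threshold (17.4%, interval 4.95 to 38.8%) lay within 579 bp, from 70234152 to 70234730 on chromosome 14, plus strand, with log2 folds of 3.40, 3.77, 5.05 and 4.05. The 2 peaks (70234181 to 70234212 and 70234693 to 70234730) showed log2 folds of 3.27 and 3.85 and replicate 2 clusters of 17 reads each. They were labelled as 5′ splice site with proximal intron and 5′ splice site with 5′ UTR. Most reads lay further on, and the 51 reads of its highest replicate 2 cluster, at 70238290 to 70238370, came with replicate 1 log2 folds of 0.50 and 0.51.

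SRSF4, a larger SR protein of the same layout, had the longest span, 33822 bp, and 28 replicate 2 clusters with 241 reads (percentile 92.4). Of its 41 replicate 1 clusters, 1 was past the threshold (2.44%, interval 0.0617 to 12.9%), with a log2 fold of 3.33 at 29507876 to 29507975 on chromosome 1, minus strand, and 8 had a log2 fold below 0. Its only peak, at 29508032 to 29508118, had a log2 fold of 3.17, just past the threshold, and was labelled as 5′ splice site with proximal intron. In replicate 1 alone the cluster at this place had a log2 fold of 2.997, just under the threshold, and in replicate 2 it had 23 reads, the most of the gene. The peak and the cluster past the threshold both lay in the first 1% of the span. Further on, from 29475877 to 29486534, 11 clusters had log2 folds of 2.28 to 3.36 without passing the threshold, and a replicate 2 cluster, of 8 reads, lay over 1 of them.

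**Figure D2:**
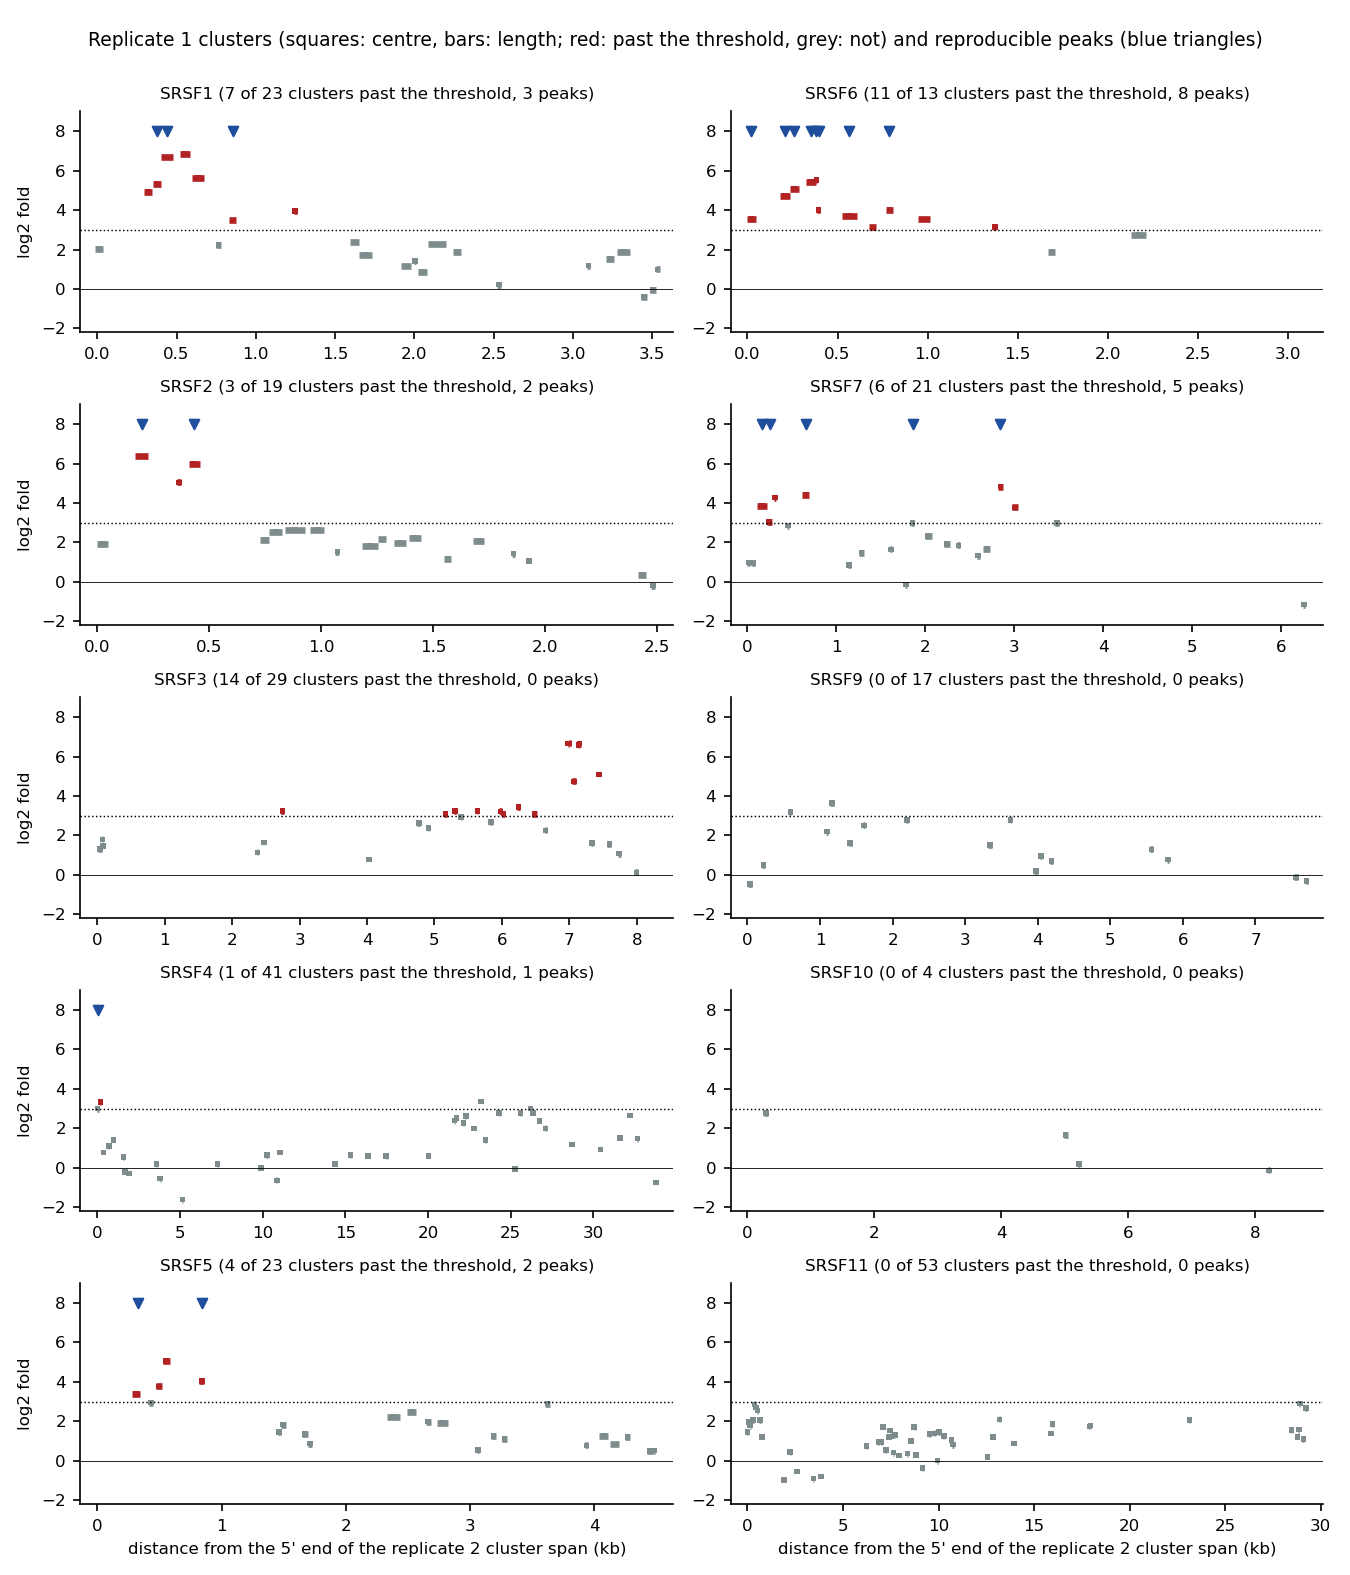
Log2 fold over input (y axis) of the replicate 1 clusters along each of the 10 SRSF transcripts (x axis, distance in kb from the 5′ end of the span of replicate 2 clusters). Squares mark the centre and bars the length of a cluster, in red past the threshold and in grey below it, and blue triangles mark the reproducible peaks. The red clusters of SRSF1, SRSF2, SRSF5, SRSF6 and SRSF7 lie toward the left, and those of SRSF3 mostly toward the right.

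SRSF3, the smallest SR protein, which also acts in mRNA export, had strong enrichment in replicate 1 and no reproducible peak. Of its 29 replicate 1 clusters on chromosome 6, plus strand, 14 were past the threshold (48.3%, interval 29.4 to 67.5%), the most of the 10 genes, and the median log2 fold was 2.94. The 6 clusters whose log2 fold was 4 or more lay within 472 bp, from 36569145 to 36569616, which is 84.2 to 89.7% of the way along the 8293 bp span. Their log2 folds were 6.65, 6.67, 4.73, 6.58, 6.66 and 5.10, of which the highest lay between the maxima of SRSF2 (6.36) and SRSF1 (6.83).

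In replicate 2 the same stretch of SRSF3 held 1 cluster of 11 reads, at 36569303 to 36569333 with a peak caller p of 2.53e-05. The 5 of its 14 clusters past the threshold that overlapped a replicate 2 cluster did so with 8 to 11 reads. By contrast, the replicate 2 clusters with the most reads, 41 at 36562170 to 36562232 and 33 next to it, were at the first bases of the span, where the replicate 1 log2 folds were 1.31, 1.80 and 1.45. Replicate 1 enrichment over the input and replicate 2 reads, which are different measures, were highest toward opposite ends of this transcript. A gene of this kind was not rare: of the 87 genes with 14 or more clusters past the threshold, 31 had no reproducible peak.

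SRSF11, an SR-related protein found in nuclear speckles, had the most reads and no enrichment past the threshold. It had 54 replicate 2 clusters and 1543 reads (percentile 99.6), with a highest cluster of 108 reads at 70687258 to 70687369 on chromosome 1, plus strand. In replicate 1 it had 53 clusters with log2 folds of −0.98 to 2.89 and a median of 1.24, and 0 of the 53 were past the threshold (upper bound 6.72%). At the cluster of 108 reads the replicate 1 log2 fold was 1.96. Of the 392 genes with 53 or more replicate 1 clusters, 102 likewise had none past the threshold. The highest read number among the SRSF transcripts therefore came without a log2 fold of 3 anywhere in the span of the gene's replicate 2 clusters. Parts of the gene outside this span were not examined.

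SRSF9, an SR protein with a short arginine and serine domain, had 11 replicate 2 clusters, 119 reads (percentile 81.8) and 17 replicate 1 clusters. None was past the threshold (upper bound 19.5%). On chromosome 12, minus strand, 2 clusters had log2 folds of 3.65 and 3.19, at 120906287 to 120906333 and 120906869 to 120906901, but their −log10 p of 2.68 and 1.81 was too low. Its cluster with the most reads, 36 at the 5′ end of the span, had a replicate 1 log2 fold of −0.47. SRSF10, which becomes a repressor of splicing when it is dephosphorylated, had the least signal, with 10 replicate 2 clusters of 3 to 7 reads, 50 reads in all (percentile 60.6) and 4 replicate 1 clusters. Their log2 folds were 2.77, 1.65, 0.19 and −0.13, and the upper bound for a share past the threshold was 60.2%, so little could be detected at this depth.

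**Figure D3:**
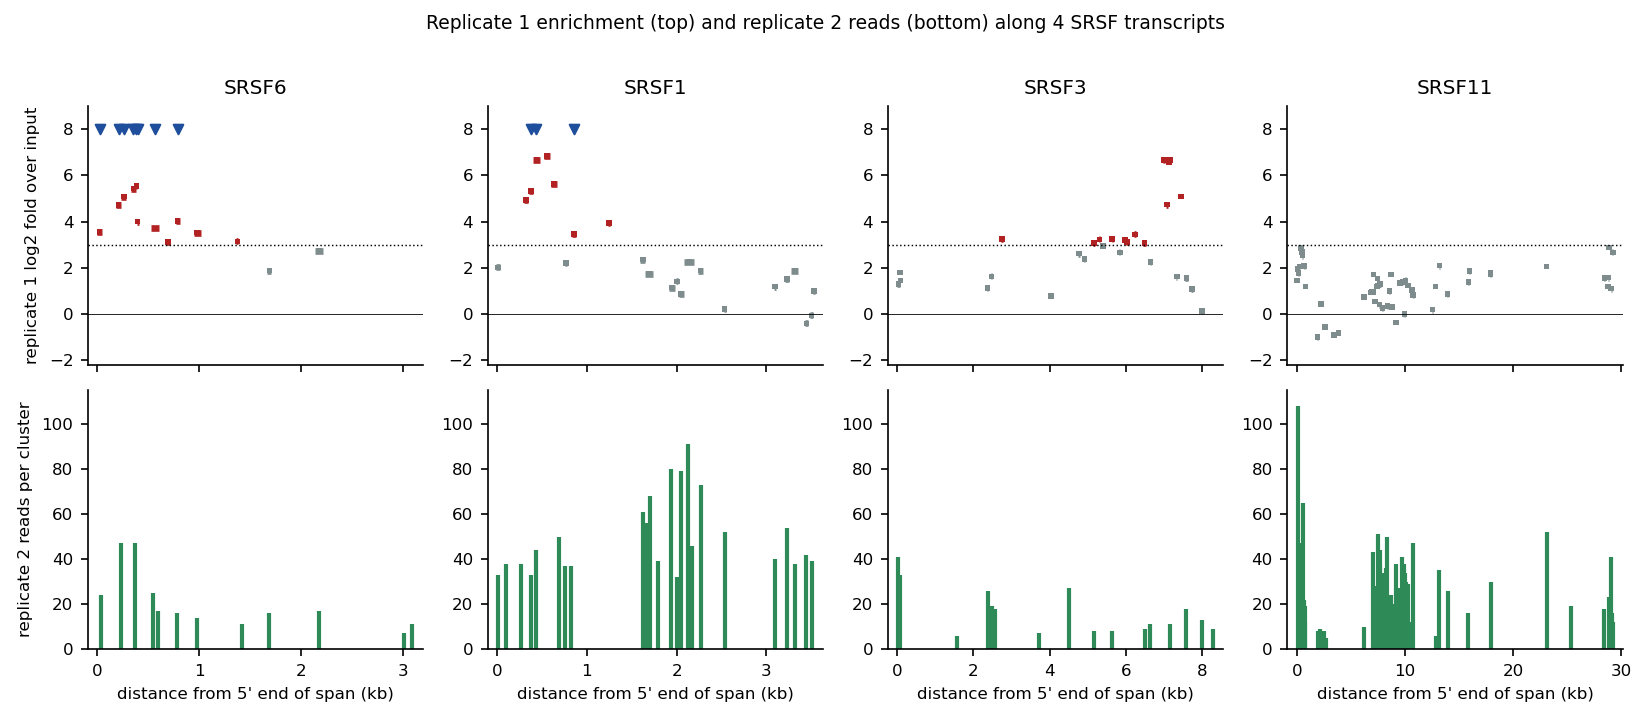
Replicate 1 log2 fold over input (top, squares and bars as centres and lengths of clusters, red past the threshold, triangles for peaks) and replicate 2 reads per cluster (bottom, green lines) against the distance in kb from the 5′ end of the span, for SRSF6, SRSF1, SRSF3 and SRSF11. Replicate 1 enrichment and replicate 2 reads are highest at the same place in SRSF6. In SRSF3 the stretch with the 6 highest replicate 1 clusters holds a single replicate 2 cluster, of 11 reads.

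The order of the genes by reads differed from their order by enrichment. By reads it was SRSF11, SRSF1, SRSF2, SRSF5, SRSF7, SRSF3, SRSF6, SRSF4, SRSF9 and SRSF10. By the share of clusters past the threshold it was SRSF6, SRSF3, SRSF1, SRSF7, SRSF5, SRSF2 and SRSF4, with SRSF9, SRSF10 and SRSF11 at 0. The counting intervals of neighbours in the second order overlapped throughout. The interval of SRSF6, from 54.6%, lay above those of SRSF1, SRSF2, SRSF4, SRSF5, SRSF7, SRSF9 and SRSF11 and overlapped those of SRSF3 and SRSF10. That of SRSF11 lay below those of SRSF1, SRSF3, SRSF6 and SRSF7. These intervals count each cluster separately, although several SRSF6 clusters abut each other, and the order with abutting clusters joined was not tested.

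**Figure D4:**
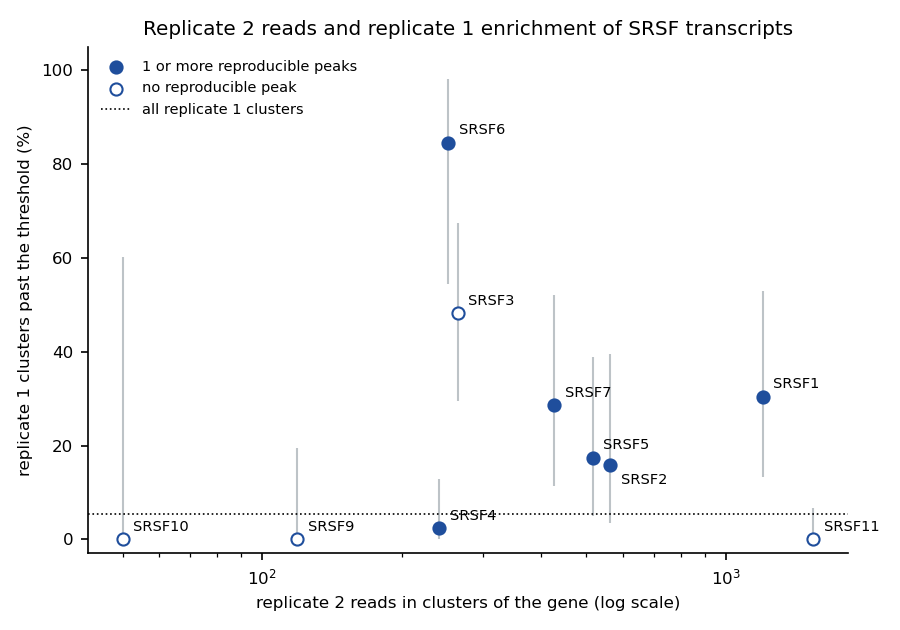
Share of replicate 1 clusters past the threshold (y axis, percent, with exact 95% intervals for counting error) against replicate 2 reads (x axis, log scale) for the 10 SRSF genes. Filled circles are genes with a reproducible peak, and the dotted line is the 5.35% of all replicate 1 clusters. SRSF11, with 1543 reads, is at 0%, and SRSF6, with 252 reads, is at 84.6%.

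A larger share of the SRSF clusters than of all clusters overlapped between the replicates. Of the 243 replicate 1 clusters, 151 overlapped a replicate 2 cluster on the same strand (62.1%, interval 55.7 to 68.3%), against 26.3% of all replicate 1 clusters. In the other direction it was 144 of 209 (68.9%, interval 62.1 to 75.1%), against 31.9%. On the opposite strand the numbers were 0 of 243 and 0 of 209. Over all clusters they were 25 of 137095 in replicate 1 (0.018%) and 23 of 119066 in replicate 2 (0.019%). No cluster of either replicate lay on the opposite strand within the spans of the SRSF genes. The SRSF values of 0 were thus fixed beforehand and are no control for strand. SRSF transcripts had a median of 20 reads per replicate 2 cluster where all clusters had 5, and the part of this depth in the overlap was not tested. The SRSF replicate 1 clusters also had to lie inside a span of replicate 2 clusters, a condition not set for all replicate 1 clusters. The part of this condition in the overlap, and in other shares set beside all replicate 1 clusters, was not tested. SRSF4 had the lowest share of overlapping replicate 1 clusters, 9 of 41 (21.95%), followed by SRSF9 with 6 of 17 (35.3%) and SRSF3 with 13 of 29 (44.8%), whereas SRSF2 had 16 of 19 (84.2%) and SRSF6 11 of 13 (84.6%). The clusters past the threshold overlapped a replicate 2 cluster at 26 of 46 places (56.5%) and the others at 125 of 197 (63.5%), with intervals of 41.1 to 71.1% and 56.3 to 70.2% that overlap. SRSF3 had an overlap at 5 of its 14 clusters past the threshold, so the lower SRSF value rests in part on this gene, and the intervals do not separate the SRSF shares. Over all replicate 1 clusters those past the threshold overlapped more often, at 2778 of 7332 (37.9%) against 33291 of the 129763 others (25.7%).

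Of the 46 clusters past the threshold, 19 overlapped a reproducible peak (41.3%, interval 27.0 to 56.8%), against 11.3% of all clusters past the threshold. The log2 fold of replicate 1 was above the value for both replicates together at 18 of the 21 peaks and below it at 3, which lay in SRSF4 and SRSF7. Among the 16 peaks with exactly the interval of a replicate 1 cluster, it was higher at all 16, and over all genes the value for both was at or below that of replicate 1 at 422 of 508 such peaks. The largest gap was at 42087400 to 42087406 in SRSF6, with 5.53 in replicate 1 and 4.29 for both. A replicate 2 cluster of the gene lay over 20 of the 21 peaks, with 16 to 47 reads.

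By the first region label given to each peak, 8 of the 21 SRSF peaks were at a 5′ splice site and 9 in a proximal intron, so that 17 were at a 5′ splice site or in intron close to an exon. The remaining 4 were a distal intron, a coding, a microRNA and a microRNA-proximal peak. The shares of 38.1% and 42.9% stand beside 21.9% and 30.4% over all 866 peaks. For coding sequence it was 4.76% beside 20.8%. SRSF6 held 8 of the 21 peaks, or 5 after abutting peaks were merged, and most of those in a proximal intron. The proximal intron share thus rests largely on this gene. None of the 21 was labelled as 3′ splice site or 3′ UTR, where 3.12% and 3.58% of all peaks were. The median length of the SRSF peaks was 50 bp, in a range of 7 to 108 bp.

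The position of the enriched clusters along the transcript was examined after their values had been seen. In SRSF1, SRSF2, SRSF4, SRSF5, SRSF6 and SRSF7, all 32 clusters past the threshold had their centre in the first 50% of the span. This set of genes was formed by leaving out SRSF3, so no interval is given for it. Their other clusters, with those of SRSF9, SRSF10 and SRSF11, were there at 100 of 182 places (54.9%). SRSF11, which had none past the threshold, gave 42 of these 100, from 53 clusters. SRSF3 went the other way, with 1 of 14. Over all 10 genes the numbers were 33 of 46 (71.7%, interval 56.5 to 84.0%) and 106 of 197 (53.8%). Over all genes, 50.7% of clusters past the threshold and 46.0% of the others lay in the first 50% of the span, and in the group with the most reads 49.4% and 46.6%. Of the 6 SRSF genes with 3 or more clusters past the threshold, 5 had all of them in the first 50%, as had 71 of 345 such genes (20.6%) in the group with the most reads.

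Other genes of SR protein biology were taken as lists. Of 20 other SR and SR-like splicing regulators, 18 had a replicate 2 cluster and 11 had 30 reproducible peaks, with 9 in SRRM2, 6 in U2AF1, 4 in LUC7L, 2 each in SREK1, ACIN1 and SON, and 1 each in SRRM1, PNN, BCLAF1, U2AF2 and RBM39. Their share of clusters past the threshold was 16.5% (113 of 683), close to the 18.9% of the SRSF genes, and 80 of the 113 (70.8%) lay in the first 50% of the span. The hnRNPs, which often oppose SR proteins at splice sites, had peaks in 16 of 22 genes and a share of 24.9% (185 of 744), and 69.2% lay in the first 50%. HNRNPA2B1 with 11 peaks and HNRNPA1 with 8 led this list. The share of the SRSF genes lay between those of both lists. Median replicate 2 reads were 414.5 for the other SR and SR-like regulators and 377 for the hnRNPs. Both values lie in the group with the most reads, where 27.4% of genes had a peak.

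The kinases and the import factor of SR proteins (SRPK, CLK and DYRK1A kinases and TNPO3) had no peak in any of 8 genes, where 4.07% of all genes had a peak. Their median was 162.5 replicate 2 reads, and in the group of 109 to 198 reads 7.45% of genes had a peak. Of their clusters, 28 of 356 (7.87%) were past the threshold, against 5.35% of all replicate 1 clusters. CLK1, which phosphorylates SR proteins, held 16 of the 28, and 21 of the 28 (75.0%, interval 55.1 to 89.3%) lay in the first 50% of the span. The NMD factors, which degrade the transcripts with poison exons, had 1 peak each in UPF1 and CASC3 of 12 genes with a replicate 2 cluster, and 36 of 378 clusters (9.52%) were past the threshold. The median of these genes was 96 reads, and in the group of 71 to 109 reads 3.31% of genes had a peak. The 36 lay in 5 genes, with 13 in SMG1 and 10 in UPF1. In this list, 6 of the 36 (16.7%, interval 6.37 to 32.8%) lay in the first 50% of the span.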

How the data were processed

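RBM17 eCLIP libraries of K562 cells (2 replicates and 1 size-matched input, paired-end reads of 75 bp) went through a published eCLIP pipeline run by the authors. The submitters' processing notes name cutadapt and STAR, with versions not given in the sources used here. Replicate 1 clusters were deposited with enrichment as a −log10 p, capped at 400, and as a log2 fold relative to the input. Replicate 2 clusters were deposited before comparison to the input, with the caller's own p-value, at most 0.05, a gene identifier and a number of reads. The authors' reproducible peaks hold a joint −log10 p and log2 fold, as read from the values: at the 508 peaks with the interval of a replicate 1 cluster, the −log10 p was at or below that of replicate 1 at all 508 and the log2 fold at 422. Replicates are numbered by their descriptions, whereas their titles number them 2 and 3. The build is not stated. Positions reach 249211724 on chromosome 1, which is hg19, and no coordinate was converted.

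The depth of replicate 1 is unknown. The 119066 replicate 2 clusters held 1336569 reads, with a median of 33 per gene. Region labels of peaks were joined by position from the study. Shares have exact Clopper-Pearson intervals from scipy 1.17.1, with Python 3.11.15, pandas 2.3.3, numpy 2.4.6 and matplotlib 3.10.9. Assignment, overlap and position were tested on simulated data, and 6 of 6 values were recovered. Exons and their sequences came from GENCODE v44 (hg38). Some annotated exon sequence is not reported here. The named genes were the 10 members, and genes of the lists with a peak. CLK1, SMG1 and the K562 markers were chosen after the values were seen. The members, lists and alternatives were chosen with earlier results of these data known. Alternatives were stricter or looser thresholds, merged peaks, 50% overlap, the opposite strand, a 1000 bp window, reads per kb of span, single genes left out, and each replicate left out.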

Additional observations from a re-analysis of the deposited data

How the results depend on the processing

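No paired analysis was possible because the results come from no test over samples and the single input carries no replicate pair. Of the 46 SRSF clusters past the threshold in replicate 1, 24 had a log2 fold of 4 or more, and 83 clusters passed at a minimum of 2. These were 9.88% and 34.2% of the SRSF clusters, against 2.28% and 8.44% of all replicate 1 clusters. Of the 21 reproducible peaks, 9 had a log2 fold of 4 or more, and each replicate used alone gave between 46 and 95 clusters in place of peaks, by thresholds that are not the same kind of value. The median of reads per kb over the 10 genes was 27.2 by gene length and 60.3 by the span of replicate 2 clusters. The 151 replicate 1 clusters with an overlap were 118 when 50% of the cluster had to be covered. They were 0 on the opposite strand, where the spans of the SRSF genes held no cluster. The share of clusters past the threshold was 18.9%, and 10.4% without SRSF3 and SRSF6. The share of these clusters in the first 50% of the span was 71.7%, and 100% without SRSF3, 62.9% without SRSF6, and 75.0% and 61.4% when the minimum log2 fold was 4 and 2. The last alternatives, which leave out genes, were added after the data were seen. For single genes, 150 values were recomputed, and 92 stayed within 1.5 times the reported value. Of the 6 genes with a peak, SRSF4 and SRSF5 had none left at a minimum log2 fold of 4, and SRSF5 had none at a minimum −log10 p of 5. The cause of these changes was not tested beyond what each alternative counts. Without read counts in replicate 1 and with 1 input, no fold has an error.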
